A study of Mus musculus with 54 samples.

Results

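Loss of the glucose transporter SGLT1 was examined in early proximal tubules of non-diabetic mice in which the other luminal glucose transporter, SGLT2, was being inhibited. The 2 groups were 6 samples from Sglt1-/- mice and 4 samples from Sglt1+/+ mice, all fed dapagliflozin, an SGLT2 inhibitor, at 10 mg/kg of diet for 2 weeks. They were chosen by their labels and are 10 of the 48 libraries in the deposited table. Every mouse was a male of the DBA strain aged 14 weeks and carried Ins2+/+, the non-diabetic genotype found among littermates of the Akita line. Akita mice carry a mutated Ins2 allele and have insulin-deficient diabetes. The labels do not say how the Sglt1 allele was made or whether it is limited to a cell type. The same genotype comparison was taken from 10 non-diabetic vehicle samples (5 knockout, 5 wild type) and from 11 Akita dapagliflozin samples (6 knockout, 5 wild type), which each have their own wild-type controls. Each sample was 70 to 80 tubules that stained for SGLT2, cut out by laser capture, from which 0.5 ng of RNA was made into a total RNA library.

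In the proximal tubule SGLT2, encoded by Slc5a2, takes up most of the filtered glucose in the early segments. SGLT1, encoded by Slc5a1, takes up what is left further along, and carries more of the load when SGLT2 is blocked. Glucose leaves the cell on the blood side through GLUT2 (Slc2a2) and GLUT1 (Slc2a1). The proximal tubule also makes glucose itself, and burns mainly fatty acids, ketone bodies and lactate.

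Values are TPM (transcript abundance), a level scaled for transcript length and to the same sum in every library. Differences are knockout minus wild type on the log2(TPM + 1) scale, ± the standard error (SE) of a limma model over all 48 libraries. A gene was called at a Benjamini-Hochberg adjusted p under 0.05, over 10558 genes, those reaching 1 TPM in 4 or more of the 10 columns. On this scale the changes of genes at low TPM are understated. A gene high in 1 group can pass the filter through that group alone. Samples are numbered in the order of their records. The wild-type samples in the table were 2, 3, 5 and 6, and wild-type samples 1 and 4 were not analysed here. Nothing in the labels ties a sample to an animal. The p-values thus cover the spread between these samples alone, and are too small if some share an animal. In bulk tubules a smaller number of cells and less RNA per cell cannot be told apart.

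Of 10558 genes, 2 were called (0.0189%): Slc5a1 was lower and Abhd1 was higher in the knockouts. At an unadjusted p under 0.05 there were 780 genes (7.39%), of which 733 were higher (6.94%) and 47 were lower (0.445%). Without wild-type sample 3 there were 1789 such genes, and without wild-type sample 2 there were 417. This imbalance followed a shift of all genes. The median difference over all genes was 0.19, and 8140 genes (77.1%) were higher. After median-of-ratios scaling, which gives each library a factor from genes detected in all libraries, the median was −0.00 and 5237 genes (49.6%) were higher. The unadjusted counts then became 401 higher (3.8%) and 377 lower (3.57%). All list medians of this comparison below are therefore to be read against 0.19 before scaling, and against 0 after it. List values from vehicle or Akita tubules are given beside the all-gene values of their own contrast. The first reference itself became 0.31 without wild-type sample 3, 0.12 without wild-type sample 5 and 0.24 over genes of at least 5 TPM in 4 columns. Counts of list members are likewise to be read beside the shares of all genes. Before scaling 77.1% were higher, and 6.94% were higher at an unadjusted p under 0.05. After scaling these shares were 49.6% and 3.8%.

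The factor lay between 0.941 and 1.29 in the 6 knockout libraries and between 0.743 and 1.26 in the 4 wild-type libraries (exact permutation test, 210 splits, 2-sided p = 0.186). Nuclear protein-coding genes made up 8.74% to 12.2% of TPM in the knockouts and 7.18% to 12.05% in wild type (exact permutation p = 0.214). Between 10018 and 10502 genes reached a TPM of 1 in the knockouts, and between 9073 and 10797 in wild type. The highest wild-type value of all 3 measures was in sample 3. Capture numbers, which the titles give to each laser capture, ran from 9 to 98 in the knockouts and from 11 to 72 in wild type. The share of mitochondrial messenger RNA was 1.14% ± 0.14 (SD, n = 6) in the knockouts and 0.917% ± 0.151 (n = 4) in wild type (exact permutation p = 0.0476, adjusted over 7 measures 0.3). With these numbers of samples the smallest p possible is 0.00476. The part of these measures in the shift of all genes was not tested.

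The knocked-out gene was examined first. Slc5a1 (chromosome 5, 33104219 to 33162870, plus strand, GRCm38) lay at 3.1, 2.65, 1.4 and 1.32 TPM in the wild-type samples. In the knockouts it was listed at 0 in 5 samples and at 0.123 TPM in sample 3. No knockout reached 1 TPM, so Slc5a1 entered the test through the wild-type samples. The groups did not overlap, and no library went against its label. Slc5a1 fell by 1.57 ± 0.23 on the log2 scale (adjusted p = 4.69e-05, lower in 6 of 6 knockouts). It fell in the same way without dapagliflozin (−1.64 ± 0.22 in non-diabetic vehicle tubules) and with diabetes (−1.48 ± 0.21 in Akita dapagliflozin tubules). The wild-type level under dapagliflozin overlapped with that of the other wild-type groups, which ran from 0.996 to 4.29 TPM in non-diabetic vehicle tubules and from 1.11 to 2.59 TPM in Akita dapagliflozin tubules. The sequence before the start of Slc5a1 is given because this is the gene the whole comparison rests on. It covers the 250 bases upstream of the RefSeq start on the plus strand of GRCm38.p6, at chr5:33103969-33104218.

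Slc5a1: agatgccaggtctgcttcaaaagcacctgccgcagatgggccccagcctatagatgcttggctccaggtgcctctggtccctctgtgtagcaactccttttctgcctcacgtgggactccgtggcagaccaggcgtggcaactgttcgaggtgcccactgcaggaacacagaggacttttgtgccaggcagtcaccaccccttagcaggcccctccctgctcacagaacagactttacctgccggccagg

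**Figure D1:**
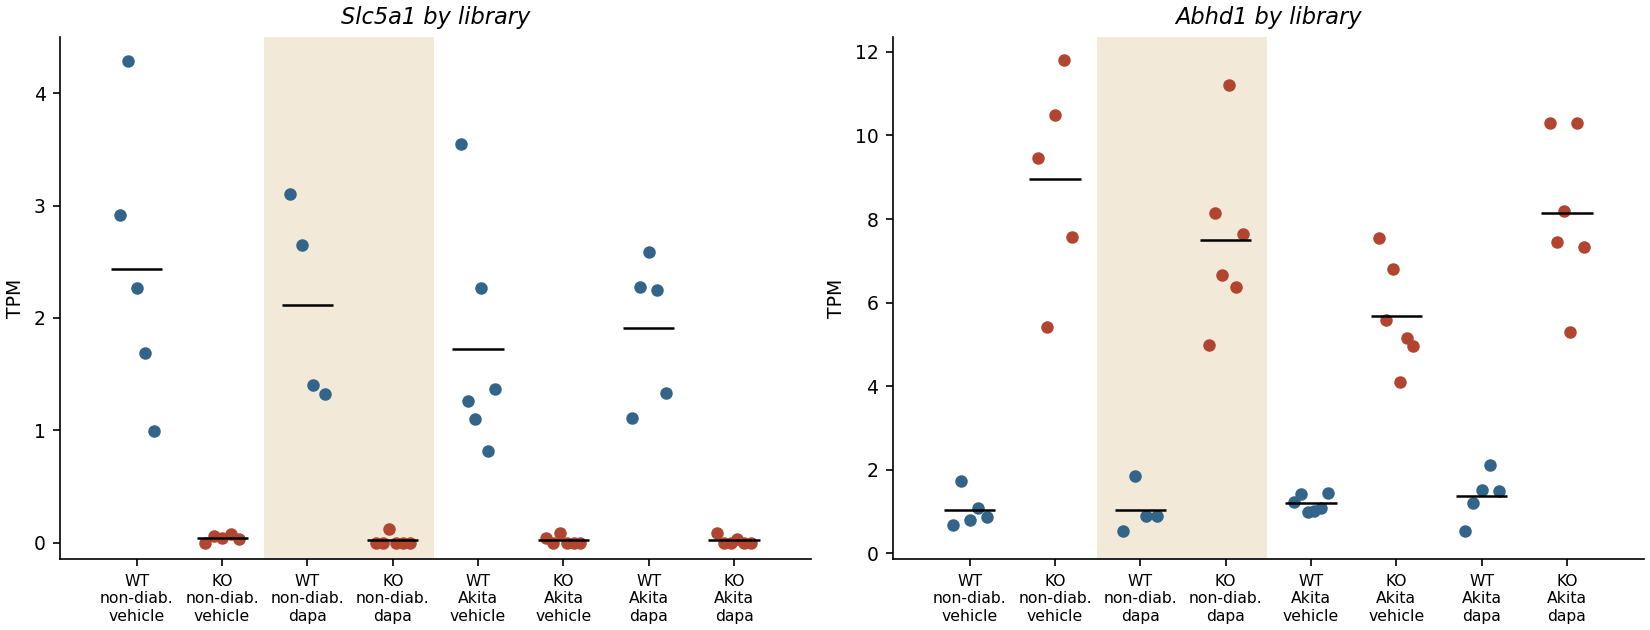
TPM of Slc5a1 (left) and Abhd1 (right) in each library of 8 groups, with wild type (WT) in blue, Sglt1 knockout (KO) in red, group means as black bars and the non-diabetic dapagliflozin groups shaded. Slc5a1 is at or below 0.123 TPM in every shaded knockout point, and Abhd1 is at 4.98 TPM or above there against at most 1.85 TPM in the shaded wild-type points.

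The other glucose transporters of the tubule were not called. Slc5a2, by whose product the tubules were picked, was at 100, 249, 98.7 and 133 TPM in wild type and at 91.3, 171, 86.8, 232, 136 and 196 TPM in the knockouts. The groups overlapped throughout, and the difference was 0.08 ± 0.28 (adjusted p = 0.936), or −0.17 after median-of-ratios scaling. Slc2a2 lay at 6.15, 18.2, 9.69 and 10.6 TPM in wild type and at 7.92, 17.7, 12.3, 18.6, 21.3 and 16.1 TPM in the knockouts. That difference, 0.48 ± 0.27 (adjusted p = 0.671), was 0.25 after scaling, and in vehicle tubules it was −0.28. Slc2a1, expressed at a low level in this segment, was at 1.07 to 2.37 TPM in wild type and 1.3 to 2.33 TPM in the knockouts (0.14 ± 0.22, adjusted p = 0.849, and −0.02 after scaling).

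Among relatives of SGLT1, Slc5a10 encodes SGLT5, a kidney carrier of mannose and fructose. It was at 23.5, 36.7, 27.1 and 21.6 TPM in wild type and at 40.5, 48.5, 46.1, 30.9, 43.8 and 42.3 TPM in the knockouts. Only knockout sample 4 fell below the highest wild-type sample. The difference of 0.62 ± 0.28 had an unadjusted p of 0.0293 (adjusted p = 0.66), and was 0.38 after scaling. Slc5a8, a lactate and short-chain fatty acid carrier, differed by 0.58 ± 0.30, and the lactate carrier Slc5a12 by 0.51 ± 0.34. GLUT5 (Slc2a5), which carries fructose, differed by 0.42 ± 0.32. Pdzk1ip1, whose product MAP17 is a partner of SGLT2, differed by 0.19 ± 0.24. Of 19 listed glucose and related transporters 14 could be tested, and 11 were higher, 1 of them (Slc5a10) at an unadjusted p under 0.05. The median of the 14 was 0.17, close to that of all genes, and after scaling 6 were higher and the median was −0.04.

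Abhd1 was the only other called gene. It belongs to the alpha/beta hydrolase domain family and lies at chromosome 5, 30950066 to 30955091 on the plus strand, 2.15 Mb from the start of Slc5a1. The GENCODE vM21 annotation gives its gene type as processed transcript, and the types of its single transcripts were not looked up. Wild-type samples had 0.533, 1.85, 0.895 and 0.877 TPM, and the knockouts had 4.98, 8.14, 6.67, 11.2, 6.37 and 7.63 TPM. Every knockout was above every wild-type sample, with means of 7.5 ± 2.12 TPM (SD, n = 6) and 1.04 ± 0.565 TPM (n = 4). Of the wild-type samples only sample 3 reached 1 TPM, so Abhd1 entered the test through the knockouts. Abhd1 rose by 2.06 ± 0.22 (adjusted p = 1.94e-08, higher in 6 of 6). It rose by 2.28 ± 0.22 in vehicle tubules and by 1.96 ± 0.21 in Akita dapagliflozin tubules. Tested directly, the difference from the vehicle contrast was −0.21 ± 0.31 (adjusted p = 0.996) and that from the Akita contrast 0.10 ± 0.31 (adjusted p = 0.97).

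Abhd1 overlaps Preb, which lies on the opposite strand, over 4239 bases. The libraries were stranded per the labels, but how the strand was used in quantification is not given in the sources used here. Preb, a regulator of transport from the endoplasmic reticulum, was at 20.6, 31.1, 19.8 and 23.5 TPM in wild type and at 25.2, 28.8, 25.7, 44.3, 30.1 and 24.6 TPM in the knockouts. The groups overlapped, and its difference of 0.31 ± 0.22 (unadjusted p = 0.17) was smaller than that of Abhd1. Cgref1, another gene next to Abhd1, differed by 0.07 ± 0.23.

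Because both called genes lie on chromosome 5, the genes within 5 Mb of Slc5a1 were examined together. Of these 267 genes 85 were tested, 69 were higher and 16 lower. The median was 0.22, against 0.19 for all genes, and after scaling 44 were higher and 41 lower with a median of 0.01. An unadjusted p under 0.05 was reached by 5 higher genes, Abhd1 included, and by 3 lower genes, Slc5a1 included, of these 85, beside 6.94% higher and 0.445% lower over all genes. After scaling 3 higher and 7 lower genes of the 85 reached it, these 2 again included, beside 3.8% and 3.57% over all genes. After Abhd1 and Slc5a1 the smallest p belonged to Tada2b, an adaptor of histone acetyltransferase complexes (0.65, limma unadjusted p = 0.00407, adjusted p = 0.601). Ywhah, the closest of them at 0.085 Mb, encodes a 14-3-3 protein. It lay at 9.39 to 11.1 TPM in wild type and 4.22 to 9.09 TPM in the knockouts, without overlap (−0.60 ± 0.29, adjusted p = 0.668). In vehicle tubules Ywhah differed by 0.08, and in Akita dapagliflozin tubules by −0.31.

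**Figure D2:**
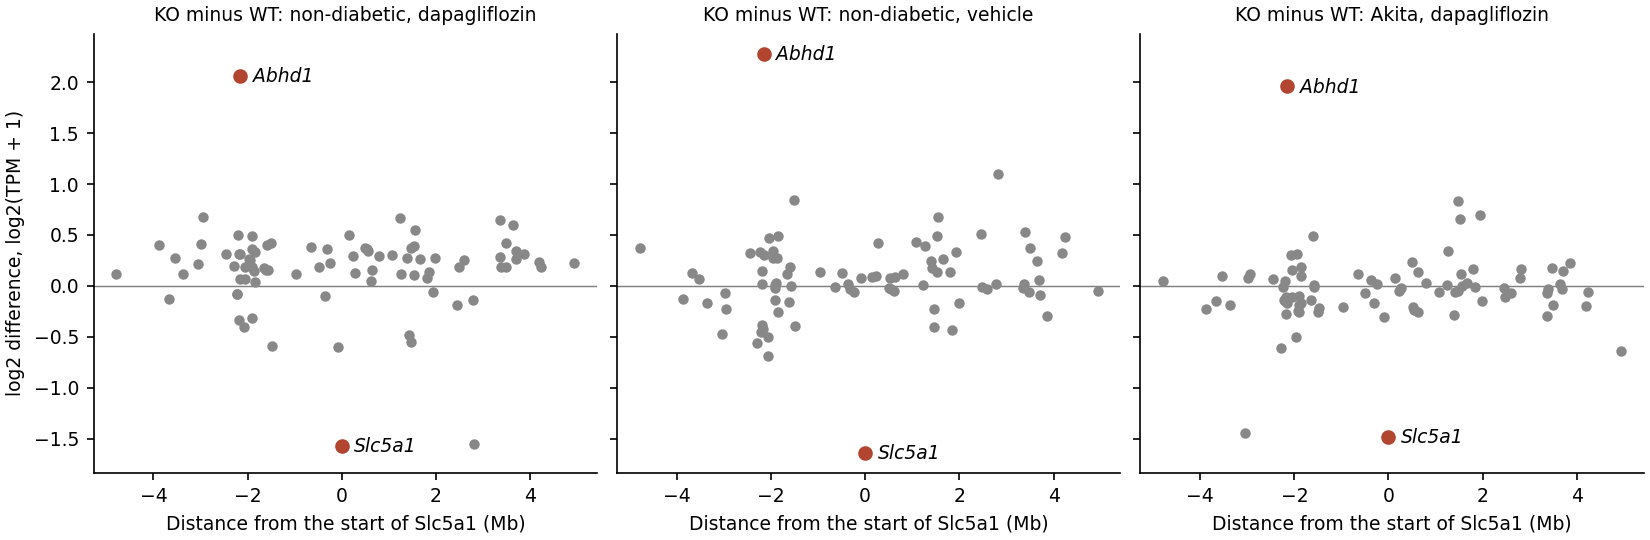
Log2 differences (knockout minus wild type) of tested genes against their distance in Mb from the start of Slc5a1, in non-diabetic dapagliflozin (left), non-diabetic vehicle (middle) and Akita dapagliflozin tubules (right). Abhd1 and Slc5a1, in red, stand apart in all 3 panels, at 2.06, 2.28 and 1.96 and at −1.57, −1.64 and −1.48, and the other points lie nearer to 0 except H2af-ps at −1.55 in the left panel and Tyms at −1.44 in the right panel.

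Below these 2 genes no further gene passed the test. The following are therefore the 9 of smallest p in each direction, with predicted genes and pseudogenes left out, given as values. Nfe2l1, a transcription factor that controls proteasome genes, lay at 4.72, 6.65, 3.17 and 4.82 TPM in wild type and at 16.6, 17.9, 8.43, 10.3, 11.8 and 12.9 TPM in the knockouts. Its groups did not overlap before or after scaling (1.25 ± 0.31, adjusted p = 0.52, and 1.04 after scaling). In vehicle tubules Nfe2l1 differed by 0.23, and in Akita dapagliflozin tubules by 0.07. Its wild-type dapagliflozin mean of 4.84 TPM was the lowest of the 9 groups, the others running from 7.89 to 13 TPM. The highest of these, 13 TPM, was the mean of the compared knockouts, the next being 12.6 TPM in non-diabetic knockout vehicle tubules. Dhx29, an RNA helicase of translation initiation, was at 2.74, 2.43, 0.923 and 1.49 TPM in wild type and at 3.3 to 7.56 TPM in the knockouts (1.26 ± 0.32, adjusted p = 0.52). Frrs1, a ferric reductase, was at 2.41, 7.88, 2.82 and 4.43 TPM in wild type and at 8.17 to 14.3 TPM in the knockouts (1.27 ± 0.33, adjusted p = 0.537). Both sets were free of overlap. Groups that do not overlap with the knockouts higher were seen in 107 of all tested genes (1.01%), and with the knockouts lower in 11 (0.104%). After scaling these became 50 (0.474%) and 53 (0.502%).

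Mogat1, which makes diacylglycerol from monoacylglycerol, was at 4.79, 6, 5.11 and 2.82 TPM in wild type and at 7.07, 10.9, 10.4, 10.8, 13.4 and 8.85 TPM in the knockouts. No knockout was as low as any wild-type sample (0.99 ± 0.26, adjusted p = 0.537, and 0.77 after scaling). In vehicle tubules the Mogat1 difference was −0.10, and in Akita dapagliflozin tubules −0.25. The wild-type dapagliflozin mean of Mogat1, 4.68 TPM, was the lowest of all 9 groups, the next being 5.02 TPM in wild-type Akita vehicle tubules. The mean was 8.78 TPM in wild-type vehicle and 9.53 TPM in wild-type Akita dapagliflozin tubules. The mean of the compared knockouts, 10.2 TPM, was the highest of the 9 groups. Acsl5, which activates long-chain fatty acids, was at 1.38, 1.84, 1.68 and 1.32 TPM in wild type and at 5.64, 8.25, 8.49, 2.05, 3.45 and 6.96 TPM in the knockouts. Knockout sample 4 was the lowest of the knockouts, just above the wild-type samples (1.31 ± 0.36, adjusted p = 0.537), and the groups overlapped after scaling. The wild-type mean of Acsl5, 1.56 TPM, was also the lowest of the 9 groups, the next being 2.27 TPM. Its knockout mean, 5.8 TPM, was the highest of the 9, the next being 3.8 TPM in wild-type non-diabetic vehicle tubules. Gnpnat1, an enzyme of the hexosamine pathway, was at 1.09, 4.19, 2.6 and 0.191 TPM in wild type and at 4.12 to 6.48 TPM in the knockouts (1.26 ± 0.31, adjusted p = 0.52). Wild-type sample 3 had the highest of these wild-type levels, and without it Gnpnat1 was called (1.59 ± 0.33, limma adjusted p = 0.0454).

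The others were a kinase, a protease and a cytoskeletal gene. Dapk3, a death-associated protein kinase, was at 4.14 to 7.26 TPM in wild type and at 7.8 to 11.7 TPM in the knockouts (0.78 ± 0.21, adjusted p = 0.537). Its groups overlapped after scaling. Sppl2a, an intramembrane protease of endosomes and lysosomes, was at 1.94 to 5.33 TPM in wild type and at 4.76 to 10.3 TPM in the knockouts (1.05 ± 0.29, adjusted p = 0.537). Sept2, a septin, was listed at 0 in 3 wild-type samples and at 1.25 TPM in sample 2, against 1.89 to 3.21 TPM in the knockouts (adjusted p = 0.537). It thus entered the test only through the group where it is high.

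In the other direction the genes of smallest p were mostly at a few TPM. Adam11, a catalytically inactive metalloprotease-like protein, was at 3.25, 8.2, 4.32 and 8.56 TPM in wild type and at 0.779, 2.82, 0.488, 2.97, 0.397 and 5.15 TPM in the knockouts. Knockout sample 6 reached into the wild-type range (−1.33 ± 0.39, adjusted p = 0.594), and the Adam11 difference was −0.11 in vehicle and −0.99 in Akita dapagliflozin tubules. Arl10, a small GTPase of the ARF-like family, was at 9.24, 13.5, 6.14 and 7.67 TPM in wild type and at 1.59 to 6.01 TPM in the knockouts (−0.95 ± 0.31, adjusted p = 0.601). Rabl2, a small GTPase linked to cilia, was at 5.59, 3.53, 4.02 and 3.68 TPM in wild type and at 1.48 to 2.49 TPM in the knockouts (−0.81 ± 0.31, adjusted p = 0.627). The groups were separate for both.

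Foxj2, a forkhead transcription factor, was at 2.58, 6.98, 1.26 and 5.94 TPM in wild type and at 1.16 to 2.47 TPM in the knockouts (−0.72 ± 0.27, adjusted p = 0.627, and −0.45 without wild-type sample 3). Nkap, a nuclear protein of RNA splicing, was at 2.72 to 5.87 TPM in wild type and at 0.515 to 4.49 TPM in the knockouts (−1.07 ± 0.38, adjusted p = 0.601). Nkap differed the other way in Akita dapagliflozin tubules, by 0.94. Pold1, the catalytic subunit of DNA polymerase delta, differed by −0.93 ± 0.34, the ubiquitin ligase adaptor Fbxo42 by −0.88 ± 0.33 and the B-cell protein Cd72 by −0.98 ± 0.37 (each with an adjusted p of 0.616). Snora17, a small nucleolar RNA, was listed at 0 in 5 knockouts and at 5.84 TPM in sample 2, and lay at 8.05 to 14.3 TPM in wild type (adjusted p = 0.641). It thus entered the test through the wild-type samples, where it is high.

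**Figure D3:**
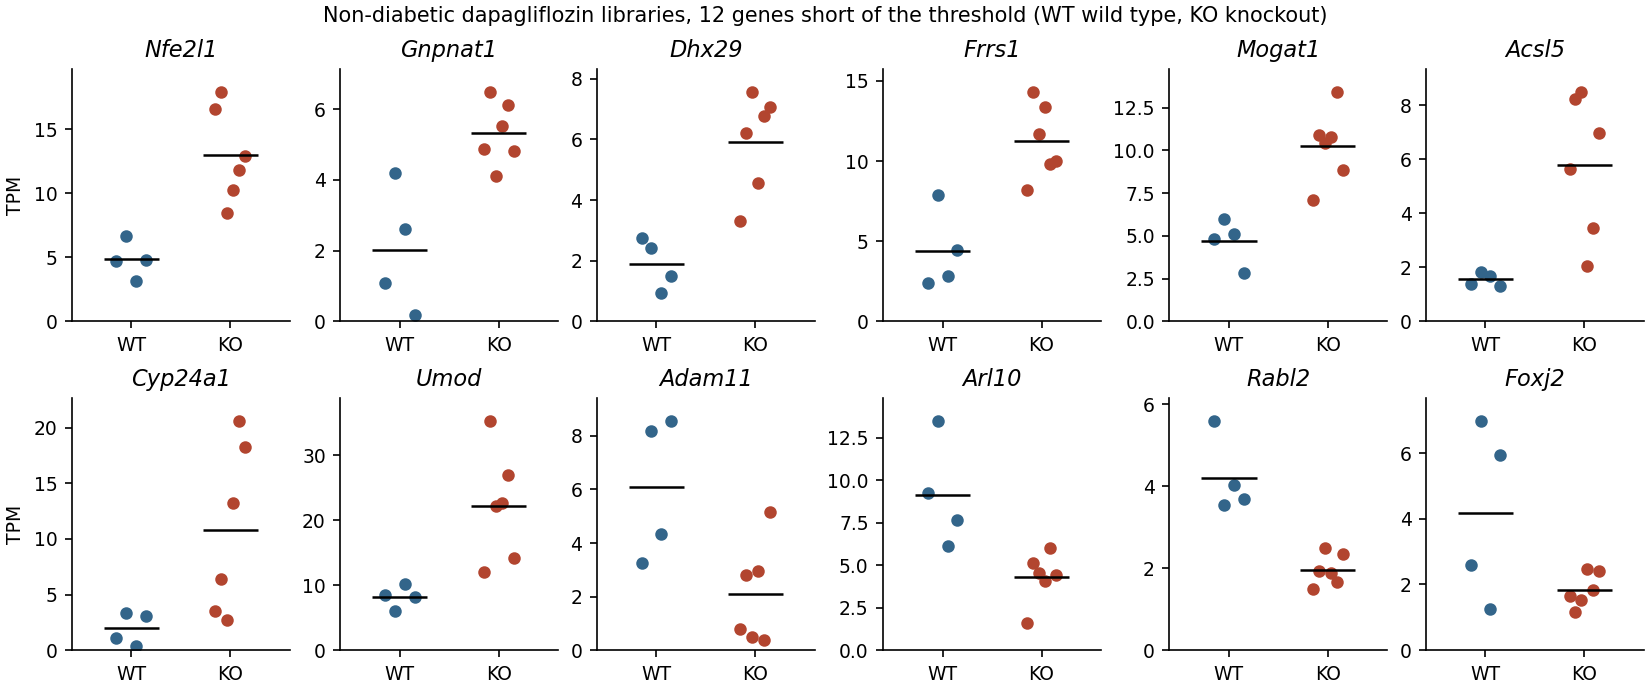
TPM of 12 genes that were not called, by library, in non-diabetic dapagliflozin wild-type (WT) and Sglt1 knockout (KO) tubules, with group means as black bars. Nfe2l1, Dhx29, Frrs1, Mogat1, Acsl5 and Umod have every knockout point above every wild-type point, Arl10 and Rabl2 have every knockout point below, and the points of Gnpnat1, Cyp24a1, Adam11 and Foxj2 overlap.

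Glucose handling inside the cell was described with 5 gene lists, in which no gene passed the adjusted threshold. Of 17 gluconeogenesis genes 16 were higher, 2 of them at an unadjusted p under 0.05, and the median was 0.28. After scaling 10 of the 17 were higher and the median was 0.03, so the list lay close to all genes. Pck1, the first committed enzyme of gluconeogenesis, was at 269 to 584 TPM in wild type and 272 to 693 TPM in the knockouts (0.12 ± 0.35). Pcx, which turns pyruvate into oxaloacetate, was at 33, 75.7, 34.5 and 38.4 TPM in wild type and at 36.2, 69.6, 47.7, 89.5, 78.6 and 92.5 TPM in the knockouts. Wild-type sample 3 lay among the knockouts, and the Pcx difference was 0.61 ± 0.26 (adjusted p = 0.644). Without knockout samples 4, 5 and 6, whose capture numbers are above every wild-type number, it was 0.21. G6pc, which releases free glucose, was at 13.7 to 39.3 TPM in wild type and at 16.2 to 50.5 TPM in the knockouts (0.56 ± 0.33, unadjusted p = 0.0979). Fbp2, the minor kidney form of fructose bisphosphatase, differed by 0.66 ± 0.28 at levels of 0.178 to 4.31 TPM.

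Of 20 tested glycolysis and pyruvate genes 19 were higher, with a median of 0.29 before and 0.05 after scaling. Ldha, which converts pyruvate and lactate, was at 18.2, 53.6, 28.5 and 23.6 TPM in wild type and at 34.5 to 50.8 TPM in the knockouts (0.61 ± 0.25, and 0.40 without wild-type sample 2). It was the only list member with an unadjusted p under 0.05. All 9 tested fructose and polyol genes were higher (median 0.41, and 0.17 after scaling, when 8 were higher). Among them Slc5a3, the sodium-coupled myo-inositol carrier, was at 0.83 to 2.05 TPM in wild type and at 1.45 to 4.4 TPM in the knockouts (0.66 ± 0.28). Khk, the first enzyme of fructose breakdown, differed by 0.31 ± 0.20. The glucose-sensing list, which holds targets of the carbohydrate response factor ChREBP, had a median of 0.19, as all genes did. Its member Txnip, which rises with glucose in many cells, was at 4.74 to 20.9 TPM in wild type and 8.82 to 11 TPM in the knockouts (0.25 ± 0.36). The insulin and FOXO signalling list had a median of 0.17 (−0.03 after scaling).

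Fatty acid oxidation and ketone genes lay somewhat higher than all genes. Of 23 tested oxidation genes 22 were higher, 7 of them at an unadjusted p under 0.05 (6.94% over all genes), with a median of 0.36. After scaling 18 were higher, 1 at that threshold (3.8% over all genes), with a median of 0.14. Acadm, the medium-chain acyl-CoA dehydrogenase, was at 19.6, 63, 52.1 and 33.1 TPM in wild type and at 48.6, 64.4, 107, 84.6, 74 and 43.8 TPM in the knockouts. The ranges overlapped, and the difference was 0.79 ± 0.28 (unadjusted p = 0.00594, adjusted p = 0.601, 0.55 after scaling, and 0.48 without wild-type sample 2). Hadhb, of the mitochondrial trifunctional protein, differed by 0.68 ± 0.29, and Ehhadh, the peroxisomal bifunctional enzyme, by 0.63 ± 0.27. Etfdh, which passes electrons from the dehydrogenases to ubiquinone, differed by 0.51 ± 0.21. Cpt1a, which brings fatty acids into mitochondria, differed by 0.38 ± 0.27. In vehicle tubules 7 of the 23 were higher, with a median of −0.07, beside 7029 of all 10558 genes higher and an all-gene median of 0.10. There Acadm differed by 0.07, Hadhb by −0.23 and Ehhadh by −0.29.

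The list of ketone metabolism and PPAR-alpha targets, genes under a fatty acid-sensing nuclear receptor, had 15 tested of 21 members. Of these 14 were higher, 3 at an unadjusted p under 0.05, with a median of 0.51, and after scaling 12 were higher with a median of 0.29. Vnn1, a pantetheinase, was at 0.774, 2.47, 0.813 and 0.739 TPM in wild type and at 0.834, 4.2, 2.52, 2.05, 3.93 and 3.34 TPM in the knockouts. Knockout samples 1 and 4 lay below wild-type sample 3, and the other 4 above it (0.78 ± 0.26, unadjusted p = 0.00381). Oxct1, the mitochondrial enzyme that uses ketone bodies, was at 66.8, 153, 121 and 88.1 TPM in wild type and at 135 to 219 TPM in the knockouts (0.65 ± 0.25). Acot1, a cytosolic acyl-CoA thioesterase, was at 0.529 to 1.55 TPM in wild type and at 1.84 to 3.88 TPM in the knockouts, without overlap before scaling (0.81 ± 0.35). Lipid synthesis genes lay close to all genes, with 16 of 19 higher and a median of 0.21. Among them Gpam, the mitochondrial glycerol-3-phosphate acyltransferase, differed by 0.75 ± 0.27 and malic enzyme Me1 by 0.65 ± 0.24.

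**Figure D4:**
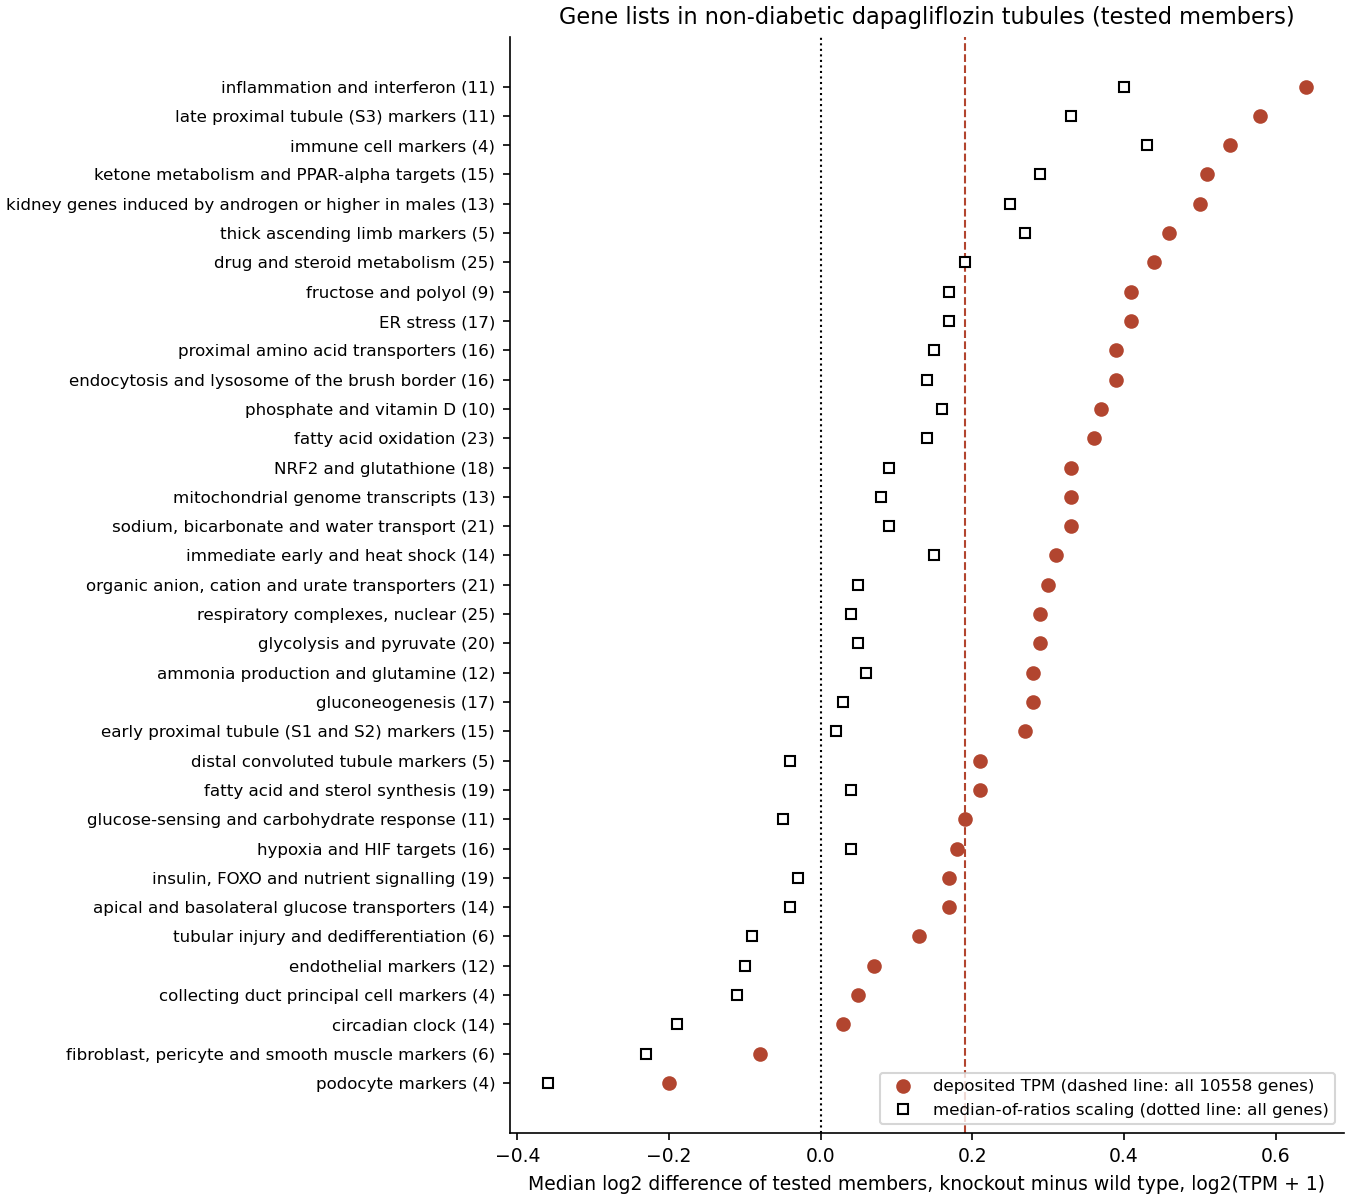
Median log2 difference (knockout minus wild type) of the tested members of 35 gene lists with at least 4 tested members, with the number tested in brackets, from deposited TPM (filled circles) and after median-of-ratios scaling (open squares). Inflammation and interferon, late proximal tubule and immune cell lists lie farthest right under both scalings, and most open squares lie within 0.2 of the dotted line at 0 while the circles are spread about the all-gene median of 0.19.

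Genes of tubular transport, on either side of the cell, were mostly a little above all genes, with none called. The median was 0.39 in 16 amino acid transporters and 0.33 in 21 sodium, bicarbonate and water transport genes. It was 0.30 in 21 organic anion, cation and urate transporters and 0.39 in 16 genes of endocytosis and lysosomes. After scaling these medians became 0.15, 0.09, 0.05 and 0.14. Slc3a1, the heavy subunit of the cystine and basic amino acid carrier, was at 20.7 to 36.1 TPM in wild type and at 28.8 to 46.9 TPM in the knockouts (0.56 ± 0.25). The sodium-proton exchanger Slc9a3 (NHE3), which works with SGLT1 and SGLT2 at the same membrane, was at 18.6, 31.1, 10.2 and 19 TPM in wild type and at 16.8, 26.3, 16.8, 32.9, 29.8 and 30.8 TPM in the knockouts. The groups overlapped (0.41 ± 0.25, unadjusted p = 0.108, and 0.17 after scaling). Abcg2, which exports urate, differed by 0.57 ± 0.27. Lrp2 (megalin), the main receptor for filtered proteins, was at 56.8, 150, 98.7 and 91.4 TPM in wild type and at 102 to 187 TPM in the knockouts (0.57 ± 0.25), and its co-receptor Cubn differed by 0.51 ± 0.26. Without wild-type sample 2 the differences of Abcg2 and Lrp2 were 0.33 and 0.34.

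In the phosphate and vitamin D list the widest difference was in Cyp24a1, the enzyme that breaks down active vitamin D. Wild-type samples had 1.1, 3.34, 0.411 and 3.1 TPM, and knockout samples 1 to 6 had 3.51, 6.43, 2.68, 13.2, 20.6 and 18.3 TPM. Knockout samples 4, 5 and 6 were the high ones, and only sample 3 lay within the wild-type range. The difference was 1.82 ± 0.52 (unadjusted p = 0.00105, adjusted p = 0.594), and 1.66 after scaling. These 3 samples carry the capture numbers 96, 97 and 98, above every wild-type capture number, and without them the difference was 0.89. In vehicle tubules Cyp24a1 differed by 0.09 and in Akita dapagliflozin tubules by −0.27. The wild-type dapagliflozin mean without diabetes, 1.99 TPM, was the lowest of the 9 groups. The means of the other 8 ran from 6.59 to 10.8 TPM, with 8.08 TPM in wild-type and 8.13 TPM in knockout vehicle tubules. The highest, 10.8 TPM, was that of the compared knockouts, the next being 8.92 TPM in wild-type Akita vehicle tubules. The vitamin D receptor, Vdr, was at 11.2, 18.7, 11.1 and 14.6 TPM in wild type and at 13.9, 14.6, 16.4, 26, 26.2 and 28.3 TPM in the knockouts, with the same 3 samples high (0.53 ± 0.28). The part of the capture number in this pattern was not tested. Slc34a1 (NaPi-IIa), the main phosphate carrier, was at 422 to 1029 TPM in wild type and 456 to 927 TPM in the knockouts (−0.00 ± 0.25, and −0.26 after scaling). Slc20a2, a phosphate carrier of many tissues, differed by 0.60 ± 0.24.

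Enzymes of drug and steroid metabolism and genes higher in male kidneys were above the all-gene median under both scalings. All 25 tested drug and steroid genes were higher, 4 at an unadjusted p under 0.05 (median 0.44, and 0.19 after scaling with 19 higher). All 13 tested male-biased genes were higher, 2 at that threshold (median 0.50, and 0.25 after scaling with 13 higher). Cyp2d9, a male-biased steroid hydroxylase, was at 11, 6.84, 3 and 10.6 TPM in wild type and at 12, 23.3, 22.3, 13.8, 23.8 and 11.9 TPM in the knockouts. Its lowest knockouts, samples 6 and 1, lay just above the highest wild-type sample (1.15 ± 0.37, unadjusted p = 0.00278). Genes of this Cyp2d cluster are near-identical copies among which reads can be split, so the value is uncertain. Sult1d1, a sulfotransferase, was at 24.7 to 47.1 TPM in wild type and at 48.8 to 81.9 TPM in the knockouts, without overlap before scaling (0.72 ± 0.30). Hsd3b4, a steroid dehydrogenase with close copies, was listed at 0 in 3 wild-type samples and 1 knockout, and so entered the test through the knockouts. Kap, the androgen-induced kidney protein and the most abundant of these, was at 1047 to 1964 TPM in wild type and 1493 to 2379 TPM in the knockouts (0.30 ± 0.27).

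Among stress programmes the endoplasmic reticulum list had the most members at an unadjusted p under 0.05. Of 17 tested genes 14 were higher, 4 at that threshold, with a median of 0.41. After scaling the median was 0.17, and 1 gene was higher and 1 lower at that threshold. In vehicle tubules 14 of the 17 were higher, with a median of 0.31, beside 7029 of all 10558 genes higher and an all-gene median of 0.10. Pdia3, a protein disulfide isomerase, was at 23.5, 40.1, 36.1 and 34.3 TPM in wild type and at 47.4, 47.7, 47.3, 52.1, 47.6 and 53.9 TPM in the knockouts. The knockouts were close together and all above wild type (0.57 ± 0.22), but the groups overlapped after scaling. Creld2, a chaperone-like gene induced by unfolded proteins, was at 3.86 to 5.61 TPM in wild type and at 6.13 to 10.6 TPM in the knockouts (0.60 ± 0.23, with overlap after scaling), and differed by 0.51 in vehicle tubules too. Hspa5 (BiP), the central chaperone of the list, was at 24.5 to 47.5 TPM in wild type and 33.7 to 60.7 TPM in the knockouts (0.47 ± 0.25). In the cytosol Hsp90aa1, an inducible chaperone, was at 21.5, 29.5, 37.4 and 29.1 TPM in wild type and at 77.3, 31.9, 45.3, 37.7, 55.3 and 71.3 TPM in the knockouts (0.79 ± 0.26, unadjusted p = 0.00367).

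Of 18 tested genes of the antioxidant NRF2 programme 17 were higher, with a median of 0.33, and 0.09 after scaling. Gclm and Gclc, the subunits of the enzyme that starts glutathione synthesis, differed by 0.81 ± 0.34 and 0.52 ± 0.24. Hypoxia targets had a median of 0.18, although Ndrg1, one of them, was at 50.4, 134, 172 and 135 TPM in wild type and at 149 to 242 TPM in the knockouts (0.85 ± 0.32, and 0.47 without wild-type sample 2). The 25 nuclear genes of the respiratory complexes had a median of 0.29, and the 13 genes of the mitochondrial genome one of 0.33, or 0.04 and 0.08 after scaling. Uqcrc2, of complex III, differed by 0.63 ± 0.28, and by 0.37 without wild-type sample 2. Clock genes had the lowest median of the metabolic and signalling lists, at 0.03, and −0.19 after scaling, when 4 of 14 were higher. Of 18 injury and dedifferentiation genes 6 were tested, with 4 higher, 2 lower and a median of 0.13, or −0.09 after scaling. The list summed to 29.7 to 43.9 TPM in wild type and 31.1 to 46.5 TPM in the knockouts. The injury markers Havcr1 (KIM-1) and Lcn2 were near the detection limit, at most at 0.419 and 0.224 TPM in any of the 10 samples.

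The inflammation and interferon list, which also holds genes of antigen presentation, had the highest median of the metabolic, stress and signalling lists. Of 21 listed genes 11 were tested, 8 were higher and 4 had an unadjusted p under 0.05, with a median of 0.64, or 0.40 after scaling. None was called. In vehicle tubules 9 of the 11 genes were higher (median 0.26), beside 7029 of all 10558 genes (median 0.10). In Akita dapagliflozin tubules 9 of the 11 were higher (median 0.22), beside 4747 of all 10558 genes (median −0.02). The 3 lower genes were C3, of complement (−0.46 ± 0.44), Nfkbia, the inhibitor of NF-kappaB (−0.23 ± 0.34), and Nfkb1, a subunit of it (−0.05 ± 0.28). The chemokine Cxcl1 differed by 0.22 ± 0.63 and the adhesion molecule Icam1 by 0.26 ± 0.24. B2m encodes the light chain of MHC class I, which shows peptides on the surface of nearly all cells. It was at 10.3, 21.6, 12.2 and 13.2 TPM in wild type and at 27, 30.1, 93.2, 22.5, 91.3 and 34.5 TPM in the knockouts. All 6 knockouts were above all wild-type samples, before and after scaling, with samples 3 and 5 far above the rest. The B2m difference was 1.54 ± 0.46 (unadjusted p = 0.00156, adjusted p = 0.594), and 1.30 after scaling. In vehicle tubules it was 0.08, and in Akita dapagliflozin tubules 0.45. The wild-type dapagliflozin mean of B2m, 14.3 TPM, was the lowest of the 9 groups, the next being 16.7 TPM in wild-type Akita vehicle tubules. The mean was 31.3 TPM in wild-type and 33.9 TPM in knockout vehicle tubules without diabetes. The mean of the compared knockouts, 49.8 TPM, was the highest of the 9 groups. The class I heavy chain H2-D1 was at 18.8, 36.3, 24.1 and 24.1 TPM in wild type and at 24.3, 40.4, 98.8, 32.5, 67.6 and 43.7 TPM in the knockouts, again highest in samples 3 and 5 (0.85 ± 0.31, adjusted p = 0.601). H2-K1 differed by 0.64 ± 0.43. Class I genes are near copies of each other, so their reads may be split among them.

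The sequence before the start of B2m is shown because it holds a motif through which interferon regulatory factors act. It is the 250 bases upstream of the RefSeq start on the plus strand of GRCm38.p6, chr2:122147437-122147686. The capitals mark its only match to the core of the interferon-stimulated response element, written here as GAAA, any 2 bases and GAAA, and searched on both strands.

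B2m: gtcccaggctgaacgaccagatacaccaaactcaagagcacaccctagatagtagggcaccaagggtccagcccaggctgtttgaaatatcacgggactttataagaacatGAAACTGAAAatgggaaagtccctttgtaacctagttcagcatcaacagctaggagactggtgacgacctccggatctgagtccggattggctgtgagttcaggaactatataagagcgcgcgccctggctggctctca

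This motif is in 978 of 32851 such windows (2.98%). Of the tested members of the inflammation and interferon list that have a window, B2m alone had a match. A match describes the letters and does not show a site in use. Irf7, an interferon regulatory factor, was at 0.406, 1.24, 0.491 and 0 TPM in wild type and at 0.73 to 3.44 TPM in the knockouts (0.91 ± 0.27, adjusted p = 0.594). Irf7 differed by 0.83 in vehicle tubules and by 0.47 in Akita dapagliflozin tubules.

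Class II genes, which professional antigen-presenting cells express most, followed the same 2 samples. Cd74, the invariant chain, was at 3.97, 13.4, 13.9 and 5.96 TPM in wild type and at 14.8, 24.8, 157, 9.82, 90.8 and 16.6 TPM in the knockouts (1.80 ± 0.75, adjusted p = 0.644). H2-Ab1, chosen after its values were seen, was at 4.11 to 8.55 TPM in wild type and at 14.8, 21, 168, 6.32, 77.8 and 11.1 TPM in the knockouts. Psmb8, an immunoproteasome subunit chosen in the same way, reached 15.9 TPM in knockout sample 3 and lay at 0.543 to 2.9 TPM in the other knockouts. Markers of immune cells were read beside these genes. Of 14 such markers 4 were tested and all 4 were higher (median 0.54), Cd74 being 1 of them. The summed level ran from 6.85 to 18.8 TPM in wild type and from 13.4 to 167 TPM in the knockouts. Cd74 made up most of this sum, with 3.97 to 13.9 TPM in wild type and 9.82 to 157 TPM in the knockouts. The general leukocyte marker Ptprc (CD45) was at 0.608 to 1.28 TPM in wild type and at 0.717 to 1.54 TPM in the knockouts. The macrophage receptor Csf1r was at 1.47, 1.12, 0.497 and 0.606 TPM in wild type and at 1.94, 1.22, 3.85, 1.01, 2.46 and 1.79 TPM in the knockouts, highest in samples 3 and 5. Cd68, a macrophage marker, was at most at 0.539 TPM in the 10 samples and at 0 in wild-type sample 6 and knockout samples 4 and 6. C1qc, of complement C1q, was at 0 in wild-type samples 2 and 6 and at 0.458 to 1.09 TPM in the knockouts. The part of immune cells in these values was not tested.

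**Figure D5:**
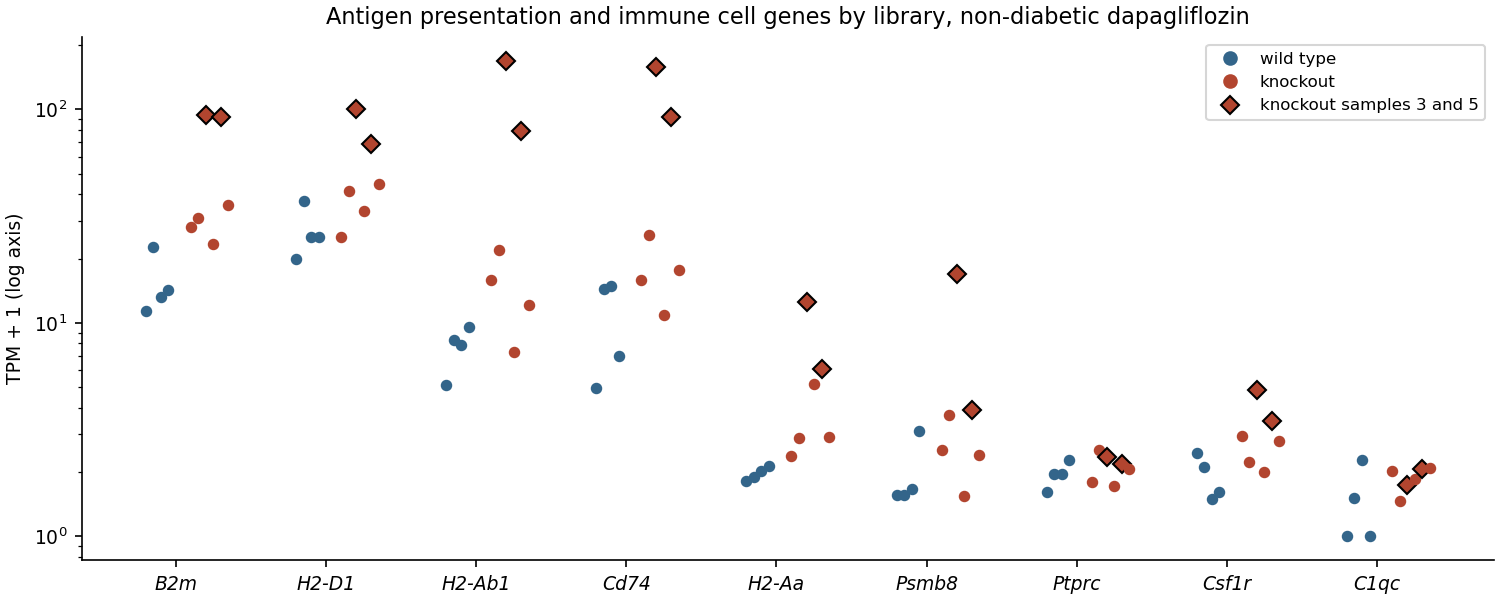
TPM + 1 on a log axis of antigen presentation genes (B2m to Psmb8) and immune cell markers (Ptprc, Csf1r, C1qc) in each non-diabetic dapagliflozin library, wild type in blue and knockout in red, with knockout samples 3 and 5 as diamonds. The diamonds are the highest points for B2m, H2-D1, H2-Ab1, Cd74, H2-Aa, Psmb8 and Csf1r, while for Ptprc and C1qc they lie among the other points.

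The tubules carried the markers of their label in all 10 samples. The summed level of 15 early proximal tubule markers was 1417 to 3170 TPM in wild type and 1614 to 2869 TPM in the knockouts, with a median difference of 0.27, or 0.02 after scaling. Markers of the late segment (S3), where SGLT1 is normally highest, summed to 335 to 484 TPM in wild type and 388 to 683 TPM in the knockouts. All 11 tested S3 markers were higher, with a median of 0.58, and after scaling 10 were higher with a median of 0.33. Napsa, a lysosomal aspartic protease, differed by 0.66 ± 0.31, the organic anion carrier Slco1a1 by 0.58 ± 0.38 and the amino acid carrier Slc7a13 by 0.56 ± 0.33. Slco1a1 was at 23.8 to 28.6 TPM in wild type, and at 51.9, 59 and 62 TPM in knockout samples 4, 5 and 6 with 24.1 to 37.6 TPM in the other knockouts.

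Markers of neighbouring segments were present too. Those of the distal convoluted tubule summed to 47.8 to 224 TPM in wild type and 94.7 to 323 TPM in the knockouts (median difference 0.21, and −0.04 after scaling). Umod, made by the thick ascending limb, was at 8.44, 6.08, 10.2 and 8.2 TPM in wild type and at 12, 35.3, 22.2, 22.7, 26.9 and 14.2 TPM in the knockouts, without overlap before scaling (1.26 ± 0.47, adjusted p = 0.616). Slc12a1, the sodium carrier that defines this limb, was at 3.53 to 6.96 TPM in wild type and at 3.36 to 10.6 TPM in the knockouts (0.37 ± 0.40). Thick ascending limb markers summed to 34.5 to 77.9 TPM in wild type and reached 112 TPM in the knockouts. Endothelial markers summed to 44.5 to 67.6 TPM in wild type and 50.1 to 75.7 TPM in the knockouts (median 0.07, and −0.10 after scaling). Podocyte markers were highest in wild-type sample 2, where Nphs1 was at 2.36 TPM. The renin gene Ren1 was also highest there, at 32.5 TPM against 1.3 to 5.21 TPM in the other wild-type samples and 1.04 to 5.78 TPM in the knockouts. The part of segment and cell mixture in the gene differences above was not tested.

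Whether the knockout acted differently under dapagliflozin was tested as the difference between the dapagliflozin and the vehicle contrast in non-diabetic tubules. The limma model called 0 genes (0%), and 419 had an unadjusted p under 0.05 (3.97%), and the all-gene median was 0.09. The 419 became 874 with median-of-ratios scaling, 759 without wild-type dapagliflozin sample 3 and 685 without knockout vehicle sample 5. The vehicle contrast itself called 2 genes (0.0189%), Slc5a1 and Abhd1 again, and 453 genes reached that unadjusted p (4.29%), 369 higher (3.49%) and 84 lower (0.796%). The smallest p of a named gene belonged to Anapc4, a subunit of the anaphase-promoting complex. Anapc4 was at 4.82, 5.96, 4.6 and 4.37 TPM in wild type and at 2.91, 4.2, 3.24, 4.1, 2.74 and 3.37 TPM in the knockouts, without overlap (−0.43 ± 0.25). It differed by 0.91 ± 0.24 in vehicle tubules, so the difference of differences was −1.34 ± 0.34 (adjusted p = 0.996). After median-of-ratios scaling it was −1.42 ± 0.25 and called (adjusted p = 0.0147), together with Med15, a subunit of the mediator complex (−1.42 ± 0.27, adjusted p = 0.0199). Over all settings tried, the adjusted p of Anapc4 ran from 0.0147 to 1 and that of Med15 from 0.0199 to 1. Acsl5 had a difference of differences of 1.80 ± 0.50 and the lysosomal membrane gene Cln3 one of −1.26 ± 0.36, neither called.

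The same test against Akita dapagliflozin tubules asked whether the effect of the knockout depended on diabetes. Here too limma called 0 genes (0%), and 461 had an unadjusted p under 0.05 (4.37%), of which 427 were higher (4.04%), and the all-gene median was 0.22. Without wild-type sample 3 there were 1005, and without wild-type sample 2 there were 300. In Akita dapagliflozin tubules 2 genes were called (0.0189%), Slc5a1 and Abhd1, and 220 reached that unadjusted p (2.08%), 64 higher (0.606%) and 156 lower (1.48%). Nkap had a difference of differences of −2.01 ± 0.52, Tyms, the thymidylate synthase, 1.64 ± 0.45 and Rabggtb, which attaches lipid anchors to Rab proteins, 1.09 ± 0.30 (each with an adjusted p of 0.931). The genotype contrasts of Nfe2l1 (1.18 ± 0.43), Mogat1 (1.24 ± 0.36), Cyp24a1 (2.08 ± 0.71) and B2m (1.09 ± 0.63) were more positive without diabetes than with it by these amounts, and none of the 4 differences was called. For all 4 genes the wild-type mean under dapagliflozin was lower without diabetes than with it, and the knockout mean was higher. The knockout means without and with diabetes were 13 and 9.94 TPM for Nfe2l1 and 10.2 and 7.66 TPM for Mogat1. They were 10.8 and 7.39 TPM for Cyp24a1 and 49.8 and 31.9 TPM for B2m. For Slc5a1 the value was −0.08 ± 0.31, well within the error.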

How the data were processed

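RNA from laser-captured, SGLT2-positive proximal tubules was sequenced as stranded total RNA, per the labels' protocols. The deposited table holds TPM made by the authors, with every library scaled to the same sum. The submitters' processing notes name Salmon, MultiQC 1.8 and the GRCm38 build, and give no Salmon version or annotation release. The table's name refers to the removal of outliers. The rule behind it is not given in the sources used here, and such a step can narrow the spread between samples. TPM keeps no sequencing depth, so depth is unknown and no counting error is given. Ribosomal RNA took most of every library's sum, so TPM of other genes moves with it. The largest ribosomal RNA row held 39.1% to 61.4% of TPM in the knockouts and 41.2% to 53.1% in wild type (exact permutation p = 0.571). Mitochondrial ribosomal RNA held 16.8% to 29.8% in the knockouts and 19.6% to 30.8% in wild type (exact permutation p = 0.51).

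Each column carries a capture number, which was looked up in the sample titles. Of 54 labelled samples 48 had a column. Of 55487 rows, the 10558 genes reaching 1 TPM in 4 or more of the 10 columns entered the test, and 9192 of these are protein-coding in GENCODE vM21. Zeros were 1.54% of their values. Values were analysed as log2(TPM + 1) with limma 3.58.1 (statmod 1.5.0, R 4.3.3) in a model of 9 groups and 48 libraries with 39 residual degrees of freedom, trended and robust variances, and 2-sided p-values given a Benjamini-Hochberg adjustment per contrast. Group differences in library measures were tested by exact permutation. The model was tested on simulated data. Alternatives were other pseudocounts (0.1, 5), filters, scalings, covariates, array weights, the compared groups alone and each library left out. Promoter sequences are from RefSeq (GRCm38.p6).

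The members, the 37 gene lists and the tests were chosen with earlier results of these data known. Named were Slc5a1, Slc5a2, Slc2a2, Slc2a1 and Abhd1, called genes filled up to 10 a direction by smallest p, up to 3 tested members of smallest p per list, and the 3 genes of smallest p per interaction, without predicted genes and pseudogenes. Other list members named in the text (such as Pck1, G6pc, Cpt1a, Hspa5, Slc9a3 and Vdr) and the class II genes, Psmb8, Cgref1, Preb, Ywhah, Tyms as a neighbour, H2af-ps, Hist1h2bk and Med15 fall outside that rule and were chosen after their values were seen. A few list members are not reported here by name.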

Additional observations from a re-analysis of the deposited data

Results flagged for a closer look

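In 10 of 150 groups of 4 or 6 samples of named genes, 1 sample stood far from the others of its group by Dixon's gap criterion. For normally distributed values chance alone gives such a gap in about 1 in 20 groups. That rate does not hold for the flagged groups of Sept2, Hsd3b4, Slc5a1 and Snora17. Their other samples were all listed at 0, so any value above 0 stood apart. Wild-type sample 3 was high for Pcx (75.7 TPM, against 33 to 38.4 in the other wild-type samples), Vnn1 (2.47 TPM, against 0.739 to 0.813) and Rab7 (31.5 TPM, against 12.6 to 14.5). The same sample had the highest scaling factor of the wild-type group, 1.26. Wild-type sample 2 was high for Sept2 (1.25 TPM) and Hsd3b4 (5.14 TPM), both listed at 0 in the other wild-type samples. Knockout sample 3 was the only knockout with a Slc5a1 value, 0.123 TPM, and it was high for Napsa (97.2 TPM, against 38.5 to 59.5). Knockout sample 2 was high for Pold1 (2.43 TPM, against 0.408 to 0.804) and Snora17 (5.84 TPM, with 0 in the others). Knockout sample 5 was high for Cd72 (2 TPM, against 0.0874 to 0.609). Each of these values lies on the side that narrows the group difference of its gene, except Napsa.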

How the results depend on the processing

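Abhd1 and Slc5a1 were called in every setting tried but 1. With a filter of at least 5 TPM in 4 of the 10 columns 1 gene was called, because Slc5a1 was no longer among the genes tested. The count with each library left out ran from 2 to 3, the third being Gnpnat1 without wild-type sample 3, and with only the compared groups in the model it was 3, with Hist1h2bk added (0 TPM in all 4 wild-type samples and 1.28 to 5.98 TPM in the knockouts, so that it entered the test only through the group where it is high). The unadjusted count of 780 became 486 with capture number as a covariate, 333 without the 3 knockouts of high capture number and 1556 with array weights, and ran from 417 to 1789 with each library left out. The unadjusted counts of the interactions also moved, from 461 to 1585 (diabetes) and from 419 to 1014 (dapagliflozin) with array weights, and to 877 (dapagliflozin) with nuclear rescaling or quantile normalization and 885 with genes detected as a covariate. The interaction with diabetes called 0 genes in all settings (0 to 0 with each library left out). That with dapagliflozin called 0 (0 to 0), except 2 with median-of-ratios scaling, 2 with a rescaling to the nuclear protein-coding sum, 2 with quantile normalization and 1 with the number of genes detected as a covariate. The cause was not tested. The Slc5a2 difference changed sign with median-of-ratios scaling (−0.17), nuclear rescaling (−0.17), quantile normalization (−0.15), capture number (−0.10) or genes detected (−0.12) as a covariate and without the knockouts of high capture number (−0.28), and ran from −0.06 to 0.38 with each library left out. That of Slc2a1 became −0.02, −0.01 and −0.01 with these 3 scalings, and that of Tyms −0.03 with nuclear rescaling. No paired analysis was possible because replicate numbers only follow the order of the records. Depth is unknown, so values near 0 TPM cannot be told from values below detection.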
